A study of Homo sapiens with 9 samples.

Results

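The genes described here are 50 interferon-stimulated genes, a list named by gene symbol and read in MDA-MB435S cells that carried an empty vector (EV), WWOX with the WFPA mutation (WFPA) or wild-type WWOX. A probe set was used where the annotation gave it exactly 1 gene, and each gene was read at its brightest probe set, by the mean of the 9 arrays. In this way 49 of the 50 genes were measured, among 19775 genes in all. STAT2 had no such probe set and was not analysed here.

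Each group had 3 Affymetrix arrays of biotin-labelled total RNA, and the values are log2 expression. MDA-MB435S is a metastatic line that the labels give as melanoma, and WWOX is a tumour suppressor with a WW domain, which the WFPA mutation alters. The protocol in the labels, given for all 9 arrays, describes lentiviral delivery of either form of WWOX and selection of stable clones with G418. It does not say how the EV cells were selected. The number of clones per group is not stated. The WWOX names all carry "wox5", which is not explained, and a figure legend of the study speaks of replicates from each clone. If a group is a single clone, differences between clones cannot be told apart from those between constructs. The sources do not say that the 3 arrays of a group came from separate cultures, so p-values measure the spread between arrays, which may be technical. The vector field of the labels conflicts with the sample names for EV and WWOX, since it gives the WWOX protein for EV and none for WWOX. The names were used. They are not free of doubt either, since the EV names carry "wox+" in brackets after EV. At the brightest WWOX probe set the EV arrays read 9.26, 8.80 and 8.74, the WFPA arrays 10.35, 10.12 and 10.25, and the WWOX arrays 10.80, 10.83 and 10.34. Both groups named for a WWOX construct lay above every EV array. The 5 WWOX probe sets did not move alike. One rose over EV by 3.14 in WFPA and 3.68 in WWOX, while the second brightest differed by -0.73 in WFPA (limma adjusted p = 0.0433) and by -0.23 in WWOX (adjusted p = 0.462). Of the 7 melanocyte markers measured, MITF was at 11.40 or above in every group mean and TYRP1 at 2.31 or below. PMEL, MLANA and TYR were at group means of 5.91 or below, under the array medians of 6.03 to 6.05, while SOX10 and S100B were bright in WWOX cells only, at means of 10.55 and 12.23 against at most 6.31 in the other groups.

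Interferons are secreted proteins that cells release on sensing foreign nucleic acid. Their receptors act through the kinases JAK1 and TYK2 to assemble a complex with STAT2 and IRF9 that binds the interferon-stimulated response element (ISRE) and switches on a broad set of antiviral genes. Many cancer cells keep part of this set on without added interferon, and several of its members are induced by more than one route.

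The interferon-stimulated genes changed in both directions in WWOX cells. Between WFPA and EV cells most differences were small and above 0, in 35 of the 49 measured genes, with a median of 0.17 on the log2 scale where that of all genes was -0.04. SAMD9 and SAMD9L, antiviral proteins that act on translation, fell 7.23-fold and 4.46-fold in WWOX cells against the mean of EV and WFPA. CMPK2, a mitochondrial nucleotide kinase, was high in EV cells and low in both other groups. Smaller rises were seen for IFITM1, OASL, GBP2, BST2 and XAF1, each in 1 or both of the groups with a WWOX construct. Of the genes often used as a readout of interferon exposure, IFIT1 fell and OAS1 rose in WWOX cells against the mean of EV and WFPA, each by less than 2-fold. IFIT1 had an adjusted p under 0.05 against WFPA and not against EV, and OAS1 against EV and not against WFPA. The OAS1 arrays of WFPA also lay above every EV array. Of the same readout genes, ISG15, IFI6, MX1, IFI27 and IRF7 had no adjusted p under 0.05 in any comparison.

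**Figure D1:**
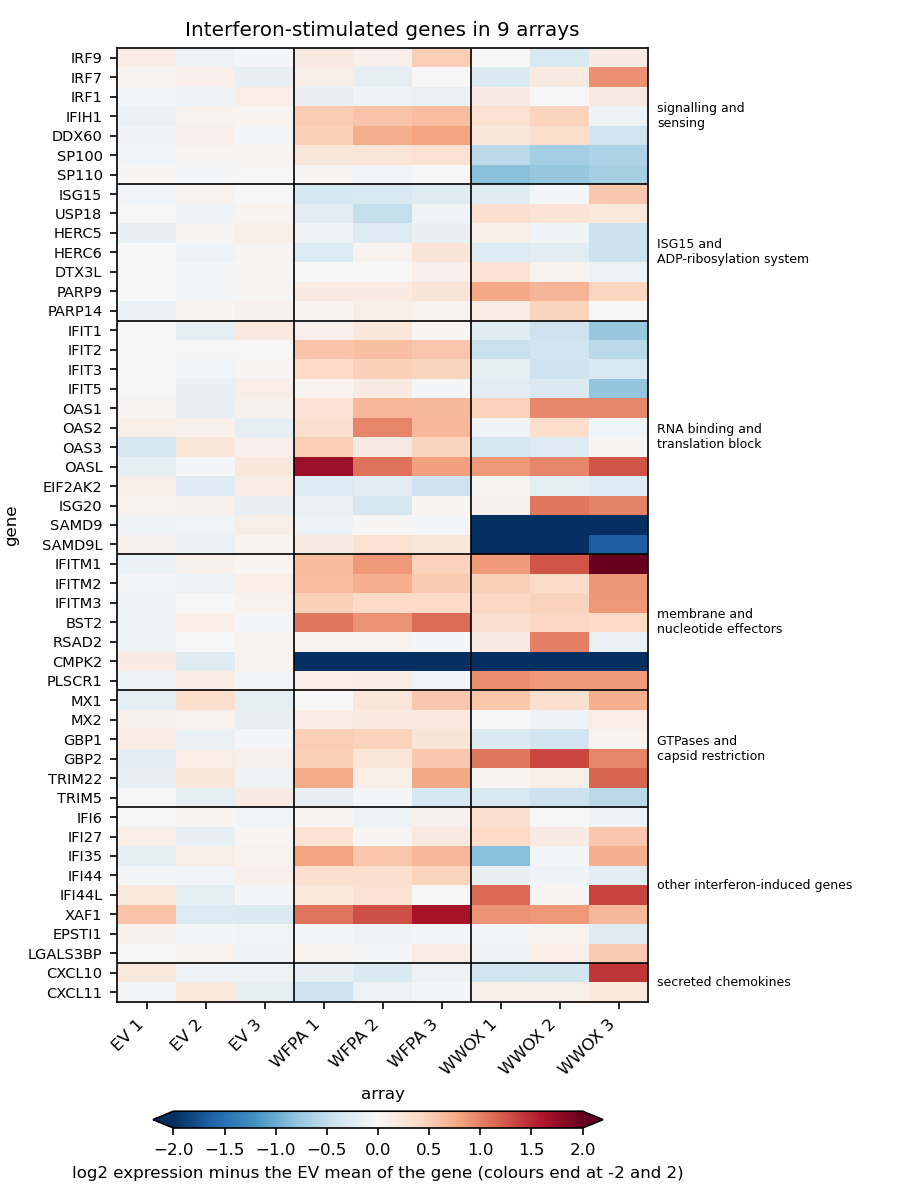
Log2 expression of the 49 measured genes in the 9 arrays, each gene as the difference from its EV mean (red higher, blue lower, colours ending at -2 and 2). Rows are genes grouped by role and columns are arrays. SAMD9 and SAMD9L are dark blue in the 3 WWOX arrays and CMPK2 in the 6 arrays of WFPA and WWOX, while most rows are pale.

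A gene was called when limma gave a Benjamini-Hochberg adjusted p under 0.05 over all probe sets and the groups differed by at least 2-fold. In WWOX cells against the mean of EV and WFPA, 1 of the 49 genes was called higher (IFITM1) and 3 lower (SAMD9, SAMD9L and CMPK2), where 1.94% of all genes were called higher and 2.06% lower. Against EV alone, IFITM1, OASL and GBP2 were called higher and SAMD9, SAMD9L and CMPK2 lower, beside 2.11% and 1.79% of all genes. Against WFPA no gene was called higher (2.01% of all genes), in limma or in a plain model, although 10 had an unadjusted p under 0.05. The share of all genes at an unadjusted p under 0.05 was not computed, here or for the like counts below. Without WWOX replicate 1 IFITM1 was called higher than in WFPA, and without WWOX replicate 2 CMPK2 was. Called lower against WFPA were 3 genes, SAMD9, SAMD9L and IFIT2 (2.72% of all genes). Between WFPA and EV cells, OASL, BST2 and XAF1 were called higher in WFPA and CMPK2 lower, beside 1.54% and 0.693% of all genes. The comparisons share arrays and are not independent of each other. Over the 4 comparisons 9 of the 49 genes were called at least once, 18.4%, against 6.64% of all genes. The members were brighter than genes at large, with a median level of 8.16 against 7.38 over all genes. They were also listed with earlier results of these data known. The shares here and below are thus a description and do not measure an excess among interferon-stimulated genes.

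With no fold limit, 19 of the 49 genes passed the adjusted p in WWOX cells against the mean of EV and WFPA, 8 higher and 11 lower. This is 38.8% of the measured members beside 20.3% of all genes. Against EV the count was 15 (9 higher, 6 lower) beside 14.8% of all genes, and against WFPA it was 16 (5 higher, 11 lower) beside 20.4%. Between WFPA and EV it was 9 (8 higher, 1 lower) beside 8.62%. The median difference over the 49 genes was 0.07 in WWOX cells against the mean of EV and WFPA, where the median over all genes was 0.04. It was 0.09 against EV (all genes 0.03), -0.02 against WFPA (all genes 0.07) and 0.17 for WFPA against EV (all genes -0.04). In WFPA against EV 35 of the 49 differences were above 0, and in the comparisons of WWOX the members were spread in both directions. For 39 of the 49 genes the 95% interval of the difference between WWOX and the mean of EV and WFPA lay wholly within 2-fold.

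**Figure D2:**
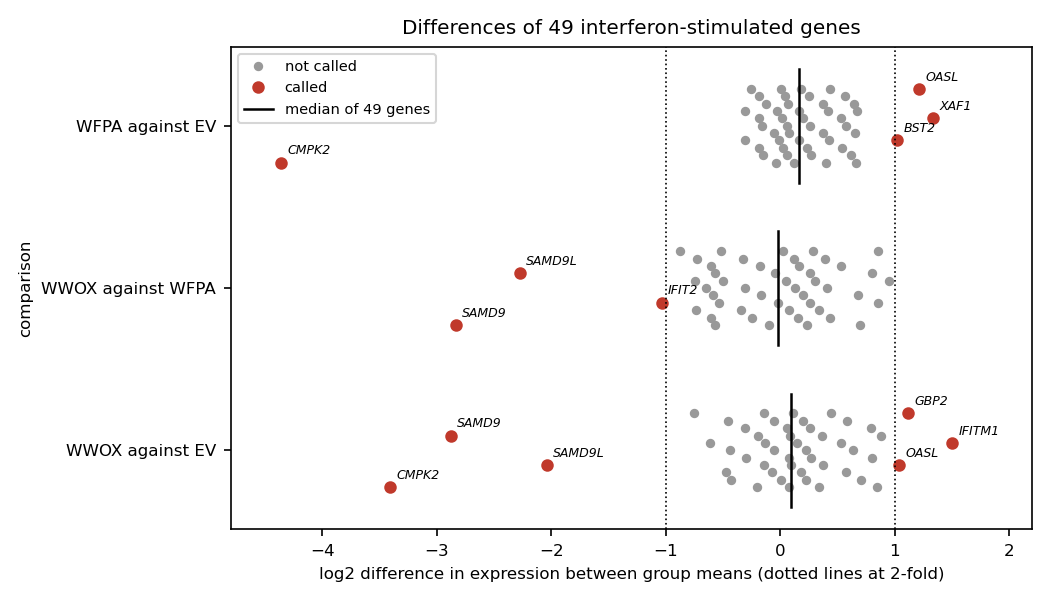
Log2 difference between group means for the 49 genes in 3 comparisons (rows); each point is a gene, red where called, the black bar is the median and dotted lines mark 2-fold. The medians, 0.09, -0.02 and 0.17 from bottom to top, lie within 2-fold, and CMPK2, SAMD9 and SAMD9L lie apart on the left.

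The reference promoters were read for the response element, since a shared element is what defines the classical members of the set. The letters searched for the ISRE type were GAAA, any 2 bases and GAAA, and for the GAS type, the interferon gamma element, TTCNNNGAA, each on both strands of the 300 bases from 250 before to 50 after the start in RefSeq (GRCh38.p14). A window was given for 41 of the 50 genes. The ISRE-type letters were in 29 of the 41 (70.7%) and in 4.38% of all 27305 genes with a window, and the GAS-type letters in 14 of the 41 (34.1%) and in 9.38% of all genes. Of the called genes with a window, 3 of 6 had the ISRE-type letters, and of the other members 26 of 35. Those 3 are shown first below, followed by 4 members that were not called in any comparison. Each line gives 30 bases of the RefSeq reference, 5′ to 3′ on the strand of the gene, with the ISRE-type letters in capitals.

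SAMD9, chr7:93118096-93118125, minus strand: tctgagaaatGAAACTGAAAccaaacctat

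BST2, chr19:17405741-17405770, minus strand: tcctttctggGAAACTGAAActgaaaacct

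IFITM1, chr11:313990-314019, plus strand: caaacagcagGAAATAGAAActtaagagaa

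ISG15, chr1:1013380-1013409, plus strand: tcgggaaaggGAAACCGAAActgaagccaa

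IFI6, chr1:27672266-27672295, minus strand: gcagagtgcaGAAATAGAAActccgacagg

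IFIT3, chr10:89332468-89332497, plus strand: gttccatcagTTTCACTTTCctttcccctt

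PARP9, chr3:122564322-122564351, minus strand: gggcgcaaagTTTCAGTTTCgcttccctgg

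SAMD9, which fell in WWOX cells, and BST2, which rose in WFPA cells, share the same 10 capital letters. Members that were not called carry them too, among them PARP9 on the other strand and DDX60, ISG20 and OAS3. IFITM1 likewise shares its capital letters with IFI6, which was not called. The PARP9 window overlaps the start of DTX3L, which is read from the other strand. SAMD9L, CMPK2 and XAF1 had a window without these letters, and OASL, GBP2 and IFIT2 had none in the table. A match is a description of the letters and not evidence of a bound site.

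Of the signalling and sensing genes, 7 of 8 were measured. Limma called none of them in any comparison, where 6.64% of all genes were called at least once. In at least 1 comparison 5 had an unadjusted p under 0.05. IRF9, the DNA-binding subunit of the ISRE complex, read 8.11, 7.87 and 7.92 in EV, 8.14, 8.07 and 8.46 in WFPA, and 7.96, 7.66 and 8.13 in WWOX. The 3 groups overlapped, and WWOX differed from EV by -0.05 (95% interval -0.39 to 0.28, limma adjusted p = 0.864). IRF1, a factor induced by interferon gamma, lay between 8.07 and 8.40 in all arrays. IRF7, the factor that amplifies type I interferon production, was at 6.25, 6.72 and 7.46 in WWOX against 6.36 to 6.67 in the other 6 arrays, so that 1 WWOX array stood high (0.26 against EV, adjusted p = 0.576). IFIH1, the RNA sensor MDA5, was at 8.40, 8.47 and 8.50 in WFPA and at 7.77, 7.96 and 7.95 in EV, a rise of 0.56 (limma adjusted p = 0.0388) that stayed under 2-fold.

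SP100 and SP110, nuclear body proteins, fell together in WWOX cells by less than 2-fold. SP100 read 10.39, 10.46 and 10.47 in EV, 10.68, 10.69 and 10.74 in WFPA, and 9.91, 9.76 and 9.82 in WWOX. SP110 read 9.90, 9.86 and 9.89 in EV, 9.90, 9.83 and 9.89 in WFPA, and 9.05, 9.13 and 9.23 in WWOX. For both genes every WWOX array was below every other array. The difference from EV was -0.61 for SP100 (standard error 0.0806, limma adjusted p = 0.00139) and -0.75 for SP110 (standard error 0.0815, adjusted p = 0.000454). The chosen probe set of SP110 may take up related sequences, as the _x_at in its name says. At another of its probe sets SP110 fell by 1.05 against EV and was called, and SP100 at another fell by 1.26 against WFPA and was called.

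ISG15 is a ubiquitin-like protein that is attached to other proteins by HERC5 and removed by USP18, and the ADP-ribosylation factors PARP9 and DTX3L act as a pair. All 7 genes of this system were measured and limma called none, where 6.64% of all genes were called at least once. In at least 1 comparison 3 had an unadjusted p under 0.05. ISG15 read 11.60, 11.73 and 11.64 in EV, 11.31, 11.34 and 11.42 in WFPA, and 11.41, 11.63 and 12.20 in WWOX. The WWOX arrays spanned those of EV and overlapped only the highest WFPA array, and the difference from EV was 0.09 (95% interval -0.30 to 0.49, limma adjusted p = 0.791). PARP9 rose in WWOX cells, with arrays at 9.55, 9.46 and 9.21 against 8.74 to 8.79 in EV and 8.93 to 9.03 in WFPA (0.63 against EV, adjusted p = 0.00414). DTX3L, its divergent neighbour, lay between 11.01 and 11.42 in all arrays, with a difference of 0.08 from EV (adjusted p = 0.699). USP18 was at 6.86 to 6.98 in WWOX and at 6.17 to 6.56 in WFPA, a difference of 0.53 (adjusted p = 0.0115).

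The RNA-binding and translation-blocking proteins held the largest differences of WWOX cells from both other groups. SAMD9 (GRCh38.p14, chr7:93099518-93117979) read 10.53, 10.55 and 10.72 in EV and 10.50, 10.62 and 10.56 in WFPA. In WWOX it read 7.82, 7.50 and 7.86. The EV and WFPA arrays overlapped, and the WWOX arrays lay far below both. The fall was 2.87 against EV (standard error 0.115, limma adjusted p = 9.66e-07) and 2.84 against WFPA (standard error 0.115, adjusted p = 1.13e-06). SAMD9L, the adjacent paralog (chr7:93130056-93148385), read 9.03, 8.82 and 8.98 in EV and 9.12, 9.24 and 9.17 in WFPA. In WWOX it read 6.94, 6.48 and 7.29, again below every other array. Its fall was 2.04 against EV (standard error 0.179, adjusted p = 0.000118) and 2.27 against WFPA (standard error 0.179, adjusted p = 5.2e-05). Neither gene differed detectably between WFPA and EV, at -0.04 (95% interval -0.30 to 0.22) and 0.23 (95% interval -0.17 to 0.64). Both probe sets of SAMD9 and all 3 of SAMD9L were called lower in WWOX against either group, with falls of 2.04 to 3.01 log2 units. Both genes kept these calls when any 1 of the 9 arrays was left out.

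**Figure D3:**
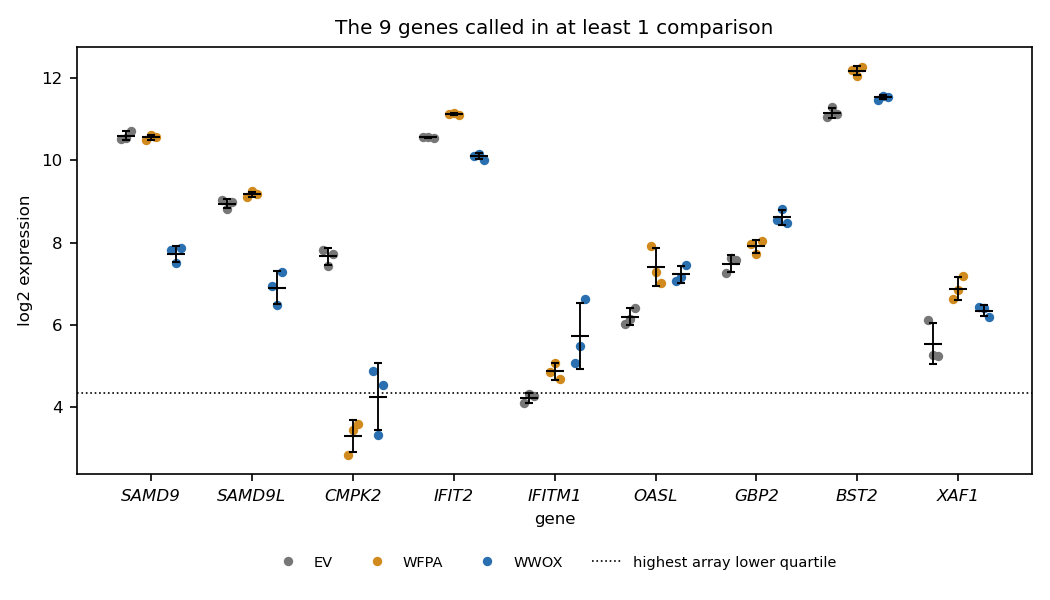
Log2 expression of the 9 genes called in at least 1 comparison; points are arrays (grey EV, orange WFPA, blue WWOX), bars show mean and SD of 3 arrays, and the dotted line is the highest lower quartile of an array, 4.34. The WWOX points of SAMD9 and SAMD9L lie below all others, and the CMPK2 points of WFPA and WWOX lie near or below the dotted line.

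The neighbouring genes on chromosome 7 were read alongside SAMD9 and SAMD9L, and were picked after their values were known. CDK6, a cell cycle kinase on one side, rose in WWOX cells, at 9.51 against 7.75 in EV (mean log2 expression, difference 1.76, limma adjusted p = 5.46e-05), and was 1.25 above EV in WFPA. VPS50, a trafficking protein on the other side, was at 10.59, 10.62 and 10.60 in EV, WFPA and WWOX, with a difference of 0.01 between WWOX and EV (adjusted p = 0.952). HEPACAM2, between SAMD9L and VPS50, was dim in all groups, at 3.00 or less, where a fall could have been missed (-0.48 against EV, adjusted p = 0.294). The fall of SAMD9 and SAMD9L was thus not seen at CDK6 or VPS50.

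**Figure D4:**
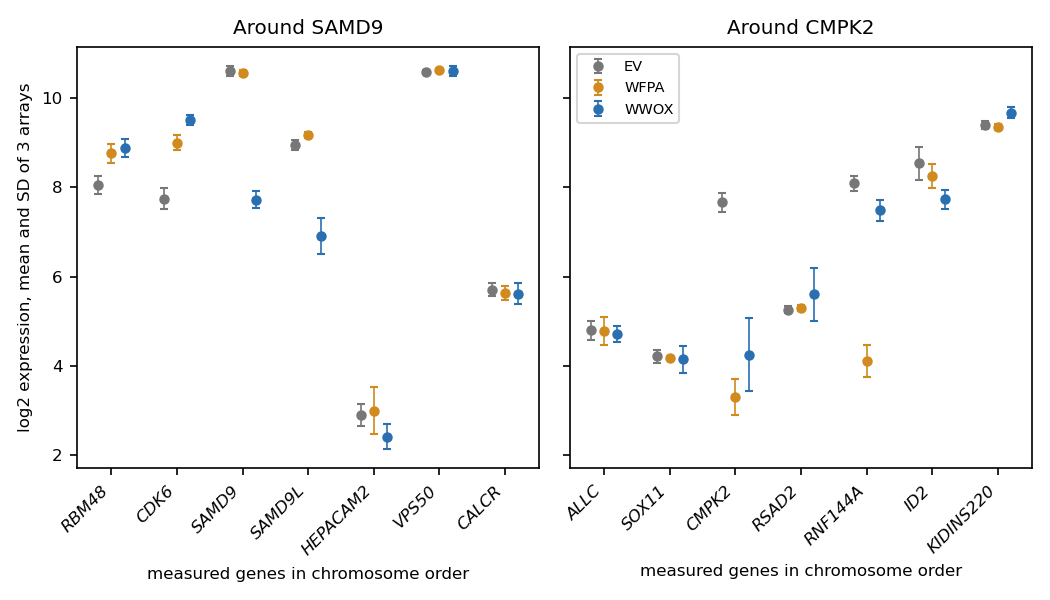
Mean log2 expression (bars: SD of 3 arrays) of the measured genes around SAMD9 (left) and CMPK2 (right), in chromosome order, in EV (grey), WFPA (orange) and WWOX (blue). On the left the WWOX points of SAMD9 and SAMD9L lie low while VPS50 is level at 10.59 to 10.62; on the right CMPK2 is high in EV alone and RNF144A is low in WFPA alone.

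The IFIT genes encode proteins that bind viral RNA lacking host cap marks and sit in a cluster on chromosome 10. IFIT2 read 10.56, 10.55 and 10.55 in EV, 11.13, 11.16 and 11.11 in WFPA, and 10.12, 10.16 and 10.01 in WWOX. The 3 groups did not overlap, with WFPA highest and WWOX lowest. Its fall in WWOX against WFPA was 1.03 (standard error 0.078, limma adjusted p = 3.99e-05), and it lost the call without WWOX replicate 3, where the fall was 0.99 (adjusted p = 0.000116). IFIT3 followed the same order, with 10.08 to 10.18 in EV, 10.53 to 10.61 in WFPA and 9.73 to 9.96 in WWOX, a difference of -0.74 against WFPA (adjusted p = 0.000655). IFIT1, the cap-binding member, read 8.27, 8.09 and 8.46 in EV, 8.37, 8.49 and 8.31 in WFPA, and 8.03, 7.86 and 7.52 in WWOX. It fell by 0.59 against WFPA (adjusted p = 0.0268), and its difference of -0.47 from EV did not pass (adjusted p = 0.077). IFIT5 was at -0.50 against WFPA (adjusted p = 0.0569). All 4 measured IFIT genes thus had their lowest group mean in WWOX cells.

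The OAS genes make the short oligoadenylates that activate RNase L, except OASL, which has lost that activity. OASL was low in EV at 6.02, 6.15 and 6.42, and higher in WFPA at 7.92, 7.28 and 7.02 and in WWOX at 7.07, 7.17 and 7.46. Both groups with a WWOX construct lay above every EV array and overlapped each other. The rise over EV was 1.04 in WWOX (standard error 0.222, limma adjusted p = 0.0168) and 1.21 in WFPA (standard error 0.222, adjusted p = 0.0128). The WWOX call was lost without EV replicate 1 (0.95, adjusted p = 0.064), without EV replicate 2 (1.01, adjusted p = 0.0587) and without WWOX replicate 3 (0.92, adjusted p = 0.0516). The WFPA call was lost without EV replicate 1 (1.12, adjusted p = 0.0559) and without WFPA replicate 1 (0.95, adjusted p = 0.0236). At the other OASL probe set the rises were 0.69 and 0.60, under 2-fold.

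OAS1 read 6.87, 6.67 and 6.90 in EV, 7.11, 7.48 and 7.46 in WFPA, and 7.27, 7.77 and 7.78 in WWOX. Its rise of 0.79 over EV (limma adjusted p = 0.0137) stayed under 2-fold. OAS3 read 7.80, 8.37 and 8.23 in EV, 8.63, 8.32 and 8.58 in WFPA, and 7.78, 7.87 and 8.16 in WWOX, a fall of 0.57 against WFPA (adjusted p = 0.049) and a difference of -0.19 from EV (adjusted p = 0.528). OAS2 differed by -0.57 from WFPA (adjusted p = 0.0659) and by 0.08 from EV (adjusted p = 0.838). ISG20, an exonuclease, was at 7.90, 8.86 and 8.80 in WWOX and at 7.46 to 7.90 in the other arrays, with 0.86 against WFPA (adjusted p = 0.0379). EIF2AK2, the kinase PKR that halts translation on double-stranded RNA, lay between 11.67 and 12.22 in all arrays, and its groups overlapped.

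Among the membrane and nucleotide effectors, CMPK2 set EV apart from both other groups. It lies at chr2:6840553-6866635, overlapping the start of RSAD2, and has 1 probe set. CMPK2 read 7.83, 7.42 and 7.73 in EV, 2.85, 3.46 and 3.60 in WFPA, and 4.89, 3.33 and 4.54 in WWOX. The fall was 4.36 in WFPA (standard error 0.366, limma adjusted p = 0.00022) and 3.41 in WWOX (standard error 0.366, adjusted p = 0.000415). The lower quartile of the arrays was 4.23 to 4.34, so the WFPA values are near the dim end of the arrays and the size of the fall is uncertain. WWOX and WFPA differed by 0.95 (95% interval 0.13 to 1.78, adjusted p = 0.114), with overlapping arrays. Without WWOX replicate 2 this difference was 1.41 (adjusted p = 0.00708) and was called. Against the mean of EV and WFPA the fall of 1.23 passed (adjusted p = 0.0292) but set WWOX against groups that themselves differed. That call was lost without EV replicate 1 (-1.19, adjusted p = 0.0607), EV replicate 3 (-1.21, adjusted p = 0.0592), WFPA replicate 2 (-1.19, adjusted p = 0.0628), WFPA replicate 3 (-1.15, adjusted p = 0.0644) or WWOX replicate 2 (-0.77, adjusted p = 0.0526).

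RSAD2, the antiviral enzyme viperin that is usually induced with CMPK2, had a mean of 5.26 in EV cells, 5.30 in WFPA cells and 5.60 in WWOX cells. Its WFPA and EV groups differed by 0.04 (limma adjusted p = 0.957), where CMPK2 differed by 4.36. RNF144A, a ubiquitin ligase on the far side of RSAD2, was at 8.09 in EV, 4.11 in WFPA and 7.49 in WWOX, a fall of 3.98 in WFPA (adjusted p = 6.84e-06). It was picked after its values were known.

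The IFITM proteins block fusion of enveloped viruses. IFITM1 read 4.10, 4.31 and 4.27 in EV, 4.86, 5.09 and 4.68 in WFPA, and 5.08, 5.48 and 6.63 in WWOX. EV lay below the other groups and 1 WWOX array stood high. The rise over EV was 1.50 (standard error 0.328, limma adjusted p = 0.0182), and that over the mean of EV and WFPA was 1.18 (standard error 0.284, adjusted p = 0.0224). Without WWOX replicate 3 the latter was 0.73 (adjusted p = 0.0129) and no longer 2-fold, and without WFPA replicate 3 it was 1.13 (adjusted p = 0.0518). Without EV replicate 1, 2 or 3 the rise over EV was 1.44, 1.55 or 1.52, with adjusted p of 0.0637, 0.0525 and 0.0545, and in a model of only these 2 groups the adjusted p was 0.0587. Since the EV values lie at the lower quartile of the arrays, the size of this change is uncertain too. Against WFPA, IFITM1 was called higher without WWOX replicate 1 (1.17, adjusted p = 0.0281), though not with all arrays. IFITM2 and IFITM3 rose by 0.58 and 0.58 over EV in WWOX (adjusted p = 0.0275 and 0.0167). Both stood above EV in WFPA as well. The means in EV, WFPA and WWOX were 9.62, 10.24 and 10.20 for IFITM2 and 12.51, 12.94 and 13.09 for IFITM3. These 2 genes are close copies whose probe sets may share signal.

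BST2, or tetherin, holds budding virions at the cell surface. It read 11.04, 11.28 and 11.12 in EV, 12.20, 12.05 and 12.26 in WFPA, and 11.47, 11.57 and 11.54 in WWOX. The 3 groups did not overlap, and WWOX lay between the others. The rise in WFPA over EV was 1.02 (standard error 0.0971, limma adjusted p = 0.000436), and it fell just under 2-fold without EV replicate 1 (0.97, adjusted p = 0.00322) or without WFPA replicate 3 (0.98, adjusted p = 0.00361). PLSCR1, a membrane scramblase, read 9.85, 10.11 and 9.90 in EV, 10.09, 10.10 and 9.90 in WFPA, and 10.88, 10.81 and 10.80 in WWOX. Every WWOX array was above the rest, with a rise of 0.88 over EV (standard error 0.1, adjusted p = 0.000585). At another of its probe sets PLSCR1 rose by 1.18 over EV and was called.

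Of the GTPases and capsid-binding proteins all 6 were measured. MX1, a dynamin-like GTPase, read 6.08, 6.61 and 6.08 in EV, 6.27 to 6.80 in WFPA, and 6.81, 6.58 and 6.97 in WWOX. The groups overlapped, and the difference of 0.53 from EV did not pass (95% interval 0.11 to 0.95, limma adjusted p = 0.111). GBP2, a guanylate-binding protein, read 7.27, 7.63 and 7.58 in EV, 7.97, 7.73 and 8.04 in WFPA, and 8.54, 8.83 and 8.47 in WWOX. The WWOX arrays lay above all others, with a rise of 1.12 over EV (standard error 0.141, adjusted p = 0.00107) and 0.70 over WFPA (standard error 0.141, adjusted p = 0.00973). Its other probe set gave 0.91 over EV (adjusted p = 0.065).

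GBP1, next to GBP2 on chromosome 1, went the other way. At the chosen probe set it read 7.74, 7.44 and 7.56 in EV, 8.07, 8.04 and 7.83 in WFPA, and 7.29, 7.20 and 7.63 in WWOX, a difference of -0.61 from WFPA (limma adjusted p = 0.0156). At 2 dimmer probe sets GBP1 fell by 1.16 and 1.49 against WFPA and was called. GBP3, which lies beyond GBP1 and is not among the 50 genes, fell by 1.08 against EV (adjusted p = 0.0037) and by 1.08 against WFPA (adjusted p = 0.00282). Probe sets of GBP1 and GBP3 may share signal. Without WWOX replicate 3 the fall of GBP3 was 0.97 against EV (adjusted p = 0.0124) and 0.98 against WFPA (adjusted p = 0.00972), and without WFPA replicate 2 the latter was 0.94 (adjusted p = 0.0113), all just under 2-fold.

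**Figure D5:**
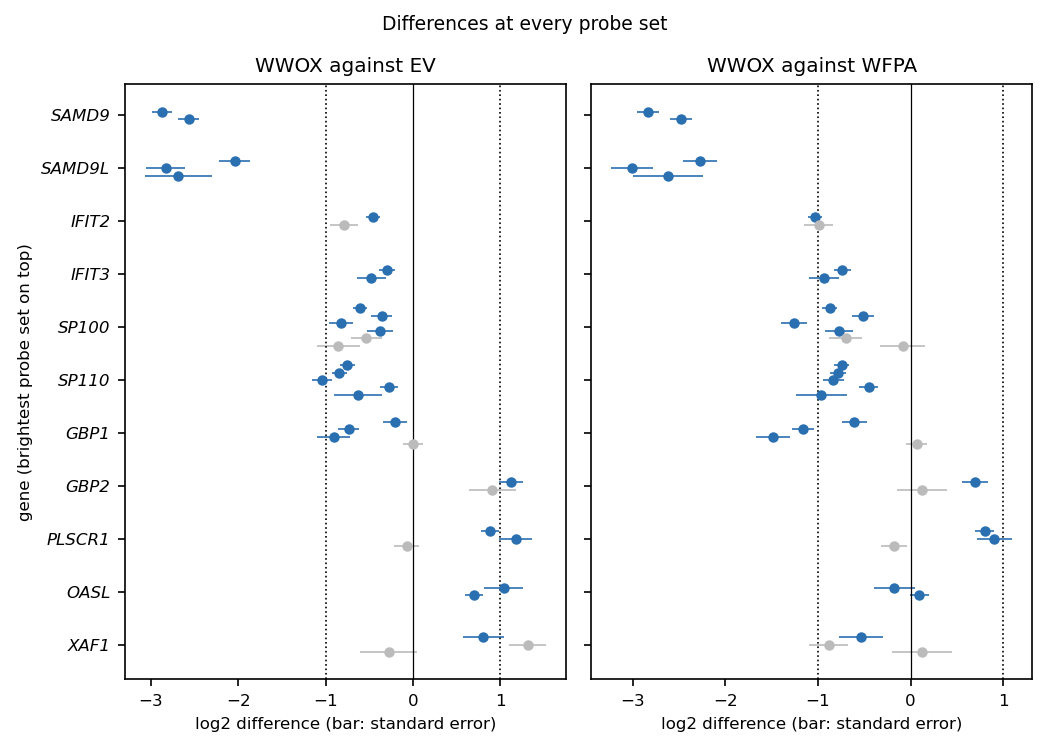
Log2 difference of WWOX from EV (left) and from WFPA (right) at every probe set of 11 genes, with standard errors; blue points are probe sets with a mean above the highest array median, 6.05, and grey points are dimmer. All points of SAMD9 and SAMD9L lie below -2 in both panels, while SP100, SP110, GBP1 and PLSCR1 have points on both sides of a 2-fold line (dotted) in 1 panel each.

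Of the other interferon-induced genes, XAF1 alone was called. XAF1, a promoter of apoptosis, read 6.11, 5.28 and 5.25 in EV, 6.62, 6.84 and 7.19 in WFPA, and 6.44, 6.41 and 6.20 in WWOX. Both groups with a WWOX construct lay above every EV array, EV replicate 1 being the nearest to them. The rise in WFPA over EV was 1.34 (standard error 0.235, limma adjusted p = 0.0105), and the difference of 0.80 in WWOX did not pass (adjusted p = 0.0597). At a dimmer probe set XAF1 rose over EV by 2.19 in WFPA (adjusted p = 0.000448) and by 1.31 in WWOX (adjusted p = 0.0041), and both were called.

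IFI6, a mitochondrial and endoplasmic reticulum protein, read 7.28, 7.32 and 7.23 in EV, 7.31, 7.18 and 7.37 in WFPA, and 7.60, 7.28 and 7.19 in WWOX. IFI27 read 5.72, 5.42 and 5.60 in EV, 5.88, 5.60 and 5.76 in WFPA, and 5.98, 5.74 and 6.11 in WWOX. The groups overlapped for IFI6, while for IFI27 the WWOX arrays lay just above those of EV and overlapped WFPA. The differences were 0.08 (95% interval -0.18 to 0.35) and 0.37 (95% interval 0.07 to 0.66) between WWOX and EV (limma adjusted p = 0.717 and 0.111). The remaining members of the role, IFI35, IFI44, IFI44L, EPSTI1 and LGALS3BP, were not called in any comparison. TRIM22, IFI44L, CXCL10 and CXCL11 had every group mean under the lower quartile of the arrays, so a change at these 4 could have been missed.

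The third WWOX array stood apart from the other WWOX arrays in several members. It exceeded the mean of the other two by 1.80 for CXCL10, 1.35 for IFITM1, 1.08 for TRIM22 and 0.98 for IRF7, and was lower by 0.68 for DDX60. In other members another WWOX array was the distant one, as in RSAD2, where replicate 2 was at 6.27 against 5.42 and 5.13. IFI35 was spread evenly, at 8.90, 9.69 and 10.44. The median SD over the 49 genes was 0.215 in WWOX, against 0.123 in EV and 0.0986 in WFPA. Over all genes it was 0.160, 0.111 and 0.0972, so the WWOX arrays were the most variable there as well.

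Upstream of the set, 18 of 21 interferon ligands were measured. Limma called none of them in any comparison, where 6.64% of all genes were called at least once. In at least 1 comparison 2 had an unadjusted p under 0.05. IFNB1, which encodes interferon beta, read 2.72, 2.78 and 3.08 in EV, 3.26, 3.24 and 3.06 in WFPA, and 3.52, 3.60 and 3.87 in WWOX. All 9 values lie below the lower quartile of the arrays, and the difference of 0.80 from EV passed the adjusted p (limma, 0.00467) without reaching 2-fold. Of the receptors, kinases and brakes, 14 were measured and limma called none at the chosen probe sets, beside the same 6.64% of all genes. In at least 1 comparison 9 had an unadjusted p under 0.05.

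IFNAR1 and IFNAR2 are the subunits of the type I receptor. IFNAR1 rose in WFPA over EV by 0.52 (limma adjusted p = 0.0238), from 8.41 to 8.57 up to 8.96 to 9.14, and IFNAR2 differed by -0.10 between WWOX and EV (adjusted p = 0.833). JAK1 read 10.94, 11.04 and 11.10 in EV, 11.48, 11.31 and 11.25 in WFPA, and 10.50, 10.46 and 10.22 in WWOX. Every WWOX array was below the rest, with falls of 0.64 against EV (adjusted p = 0.00517) and 0.95 against WFPA (adjusted p = 0.000449). At the JAK1 probe set of largest variance the falls were 1.59 and 1.77, beyond 2-fold. TYK2 differed by -0.22 between WWOX and EV (adjusted p = 0.346).

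Of the nucleic acid sensors and relays, 18 of 22 listed names were measured. CGAS and IRF5 were called in at least 1 comparison, as were 6.64% of all genes. CGAS, the DNA sensor, read 9.35, 9.13 and 9.46 in EV, 8.91, 8.85 and 8.87 in WFPA, and 8.35, 8.34 and 7.69 in WWOX, a fall of 1.19 in WWOX against EV (limma adjusted p = 0.00256). Without WWOX replicate 3 it was 0.97 (adjusted p = 0.00114), and at the probe set without _s_at in its name CGAS differed by 0.26 the other way (adjusted p = 0.392). IRF5, a factor downstream of these sensors, read 6.70, 5.93 and 6.10 in EV, 7.20, 6.98 and 7.75 in WFPA, and 7.20, 7.61 and 7.78 in WWOX. It rose over EV by 1.29 in WWOX (adjusted p = 0.012) and by 1.07 in WFPA (adjusted p = 0.042). At the IRF5 probe set without _s_at in its name the rises were 0.69 and 0.70, and neither was called. The WFPA call of IRF5 was lost without EV replicate 2 (0.91, adjusted p = 0.139) or 3 (0.99, adjusted p = 0.13), without WFPA replicate 1 (1.12, adjusted p = 0.0989), 2 (1.23, adjusted p = 0.0557) or 3 (0.84, adjusted p = 0.134), and without WWOX replicate 2 (1.07, adjusted p = 0.0613). It was also lost in a model of only the 2 groups (adjusted p = 0.0523) and with the replicate number as a block (adjusted p = 0.0653).

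Of 42 further interferon-stimulated genes outside the 50, 36 were measured. In WWOX cells against the mean of EV and WFPA, RTP4 was called higher and GBP3 lower, beside 1.94% and 2.06% of all genes. The other 34 were not called. RTP4, a chaperone of receptor transport, read 4.58, 4.30 and 4.09 in EV, 4.49, 4.91 and 4.64 in WFPA, and 5.21, 6.07 and 5.94 in WWOX. It rose by 1.42 over EV (limma adjusted p = 0.00439) and by 1.06 over WFPA (adjusted p = 0.0138). The second call was lost without WFPA replicate 1 (0.97, adjusted p = 0.055) or 3 (1.04, adjusted p = 0.0505), or WWOX replicate 2 (0.89, adjusted p = 0.0455) or 3 (0.96, adjusted p = 0.0449).

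In WFPA against EV limma called 3 of these 36 higher and none lower, beside 1.54% and 0.693% of all genes. At an unadjusted p under 0.05, 4 were lower. APOL6, an apolipoprotein L, rose by 1.36 (limma adjusted p = 0.000254), TMEM140 by 1.10 (adjusted p = 0.00133) and DDX60L, a relative of DDX60, by 1.11 (adjusted p = 0.00212). DDX60L lost the call without EV replicate 1 (0.99, adjusted p = 0.00949) or WFPA replicate 2 (1.00, adjusted p = 0.0104), and at the probe set without _s_at in its name it differed by 0.27. At the chosen probe sets all 3 lay in WWOX between the EV and the WFPA mean, at 7.68, 7.57 and 7.57. At the APOL6 probe set of largest variance WWOX instead lay below both. There it differed by -1.83 from WFPA (limma adjusted p = 0.000109). From the mean of EV and WFPA it differed by -1.30 (adjusted p = 0.000337), and both were called. None of the 3 was called in WWOX against EV.

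Of 12 leukocyte markers 10 were measured. PTPRC, which encodes CD45, was the only one called, where 6.64% of all genes were called at least once. PTPRC read 9.88, 10.04 and 9.72 in EV, 7.61, 7.51 and 7.88 in WFPA, and 5.58, 5.97 and 4.88 in WWOX, with falls from EV of 2.21 (limma adjusted p = 0.000998) and 4.40 (adjusted p = 6.12e-06), in the same groups as CMPK2. The order of these groups differed, with means in EV, WFPA and WWOX of 9.88, 7.67 and 5.48 for PTPRC. For CMPK2 they were 7.66, 3.30 and 4.25, with overlapping WFPA and WWOX arrays. The part of PTPRC in the CMPK2 result was not tested. The summed level of all 10 markers (log2 of the sum) was 10.22 to 10.47 in EV, 8.93 to 9.17 in WFPA and 8.68 to 8.73 in WWOX. Without PTPRC it was 8.41 to 8.53, 8.25 to 8.41 and 8.50 to 8.59. The other 9 markers had group means of 2.77 to 6.49, of which CD3E, MS4A1 and CLEC4C were under the lower quartile of the arrays. In these bulk samples fewer cells with an RNA and less of it per cell cannot be told apart.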

How the data were processed

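The deposited values are log2 probe set intensities of 9 arrays (3 each of EV, WFPA and WWOX), which the authors calibrated and normalized in Partek Genomics Suite. The background and normalization method is not given in the sources used here, and no further normalization was applied. Of 54675 probe sets, 62 array controls were left out and 54613 were tested, of which 41091 carried 1 gene, 1801 several and 11721 none in the platform annotation. No column was left unused. A mean per group was fitted to all 9 arrays in limma 3.58.1 (R 4.3.3) (6 residual degrees of freedom, variances moderated, two-sided), and p-values were adjusted by Benjamini-Hochberg over all probe sets. Calls needed an adjusted p under 0.05 and 2-fold. The study's methods used 4-fold and Bonferroni, which were run as alternatives with other variance models, scalings, filters on dim probe sets, probe set choices and each array left out. The script was tested on simulated data. Precision is limited by having 3 arrays per group.

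The members and lists were chosen with earlier results of these data known. Named by rule were the called members, IRF9, IRF7, IRF1, ISG15, IFI6, IFI27, IFIT1, MX1 and OAS1, and, from the other lists, called genes (up to 4 per list), IFNB1, IFNAR1, IFNAR2, JAK1 and TYK2. All other genes named, the further probe sets and the chromosomal neighbours were picked after their values were seen. Promoters were searched in Python 3.11.15 and figures drawn with matplotlib 3.10.9.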

Additional observations from a re-analysis of the deposited data

How the results depend on the processing

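The counts of called members followed the fold limit most. With no fold limit they were 19, 15, 16 and 9 in WWOX against the mean of EV and WFPA, WWOX against EV, WWOX against WFPA and WFPA against EV, where 4, 6, 3 and 4 were called. At 4-fold, as the study's methods ask, the first, the second and the last were 2, 3 and 1, and with a Bonferroni adjustment 2, 1 and 1. A plain model without moderated variances gave 2 in the first and 2 in the last, without IFITM1, OASL, XAF1 and the call of CMPK2 in the first. A filter at the median level gave 2 in the first, and the probe set of largest variance gave 7. Leaving out single arrays gave 2 to 5, 4 to 7, 3 to 5 and 2 to 4. The first fell to 2 without WFPA replicate 3, the third rose to 5 without WWOX replicate 1 or 2, and the last fell to 2 without EV replicate 1. The calls gained in the third included IFITM1 without WWOX replicate 1 and CMPK2 without WWOX replicate 2, both higher in WWOX. A model of only 2 groups gave no value for the first comparison.

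The sign of the median over the members in WWOX against the mean of EV and WFPA was not stable. That median was 0.07 and became -0.0485 with a filter at the lower quartile, -0.0543 with one at the median and -0.00108 with only probe sets without _x_at or _s_at in the name. In WWOX against WFPA it was -0.02 and became -0.18 with the filter at the median and -0.0904 with only those probe sets. Over the arrays left out it ran from -0.0407 to 0.0870 against the mean of EV and WFPA (lowest without WWOX replicate 1), 0.0793 to 0.17 against EV (highest without WWOX replicate 1), -0.19 to 0.0348 against WFPA (lowest without WWOX replicate 3) and 0.16 to 0.20 for WFPA against EV. Of 2810 values of the genes tested under an alternative, 2667 kept their call or stayed uncalled, 102 lost a call and 40 gained one. In 1 more a called change turned its sign. Differences that changed sign without a call in either setting are among the 2667, as for IRF9 and ISG15 in WWOX against EV. CGAS turned to 0.26 in WWOX against EV with probe sets without _x_at or _s_at. The cause of these shifts was not tested.

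The replicate numbers are not stated to pair the arrays. Deviations of same-numbered arrays correlated at -0.05 to 0.03 and 0 of 9 arrays correlated best with their own number. With the replicate block the 4 counts were 4, 6, 3 and 4 and the medians 0.07, 0.09, -0.02 and 0.17. Of the genes named, IRF5 alone changed its call, in WFPA against EV (adjusted p = 0.0653). Only 3 arrays per group and values near the lower quartile, 4.23 to 4.34, limit what could be seen at the dim members.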
